A study of Mus musculus with 9 samples.

Results

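The identity of a cell of the bone lineage is usually read from a small set of genes, and 10 of them were examined here in MLO-Y4, an osteocyte-like line of the mouse. They are Runx2, Sp7, Alpl and Spp1, which mark osteoblasts, Pdpn, Gja1 and Cd44, which mark the young osteocyte with its dendrites, and Phex, Dmp1 and Sost, which mark the osteocyte in mineralised bone. They were picked by gene symbol, and all 10 were found among the 56748 genes of the count table. RNA of MLO-Y4 was sequenced after culture on collagen I (0.15 mg/ml) below transwell inserts with 1.0 µm pores that carried primary articular chondrocytes of C57BL/6J mice aged 5 to 6 days, used within passage 2. In the control group the chondrocytes were unstimulated. In the 24 h and 48 h groups they had first received interleukin-1β (IL-1β) at 10 ng/ml for 6 h, and co-culture then lasted 24 h or 48 h. Each group had 3 libraries. The culture time of the control group is not in the labels, so stimulation and time cannot be told apart in a comparison with control. The labels write MLO-Y5, MLO-Y6 and MLO-Y7 for the 48 h samples, whereas the protocols name MLO-Y4 throughout. As a model MLO-Y4 is 1 immortalised line, made from mice in which the osteocalcin promoter drives a viral large T antigen. The labels do not say whether the replicates were separate cultures, so the p-values measure the spread between these libraries, which may be technical. In bulk RNA, fewer cells expressing a gene and less RNA per cell cannot be told apart.

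An osteoblast that is buried in its own matrix becomes an osteocyte. It stops making large amounts of bone matrix, grows dendrites through the canaliculi and couples to its neighbours by gap junctions. During this change the genes of matrix and alkaline phosphatase give way to podoplanin in the young osteocyte, and later to the phosphate regulators and to sclerostin, the Wnt inhibitor by which mature osteocytes restrain bone formation. MLO-Y4 is known for its dendrites and for abundant connexin 43.

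The levels of these genes lay far apart. Of the 10 genes, 8 passed the filter on low counts and entered the test, and 2, Dmp1 and Sost, did not. Per kilobase of the deposited gene length, Spp1 was the highest in control at 2355 ± 76.0 CPM per kb (SD, n = 3), where CPM is the count scaled to the library total after TMM normalization. It was the gene with the 5th highest level per length among the 13812 tested genes. Gja1 followed at 146.1 ± 7.93 CPM per kb, Pdpn at 116.8 ± 1.91 and Cd44 at 48.9 ± 2.89. These 4 genes lay above 99.96%, 98.1%, 97.4% and 92.4% of the tested genes, respectively. Alpl at 6.96 ± 0.624 CPM per kb and Runx2 at 6.67 ± 0.466 lay near the middle of the tested genes, and their control libraries overlapped. Phex at 2.32 ± 0.253 and Sp7 at 0.580 ± 0.156 CPM per kb came next. Each neighbour in this order was separated without overlap of the control libraries, apart from the pairs Alpl and Runx2, and Dmp1 and Sost. Spp1 stood 16.1-fold above Gja1, while Gja1 stood 1.25-fold above Pdpn. At 24 h and at 48 h the libraries of Runx2 lay above those of Alpl, with means of 7.38 and 5.84 CPM per kb at 24 h and of 7.35 and 5.35 at 48 h. Counts of Supt3, which overlaps Runx2 on the opposite strand, reached 28.9% of those of Runx2, and their part in this order was not tested.

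**Figure D1:**
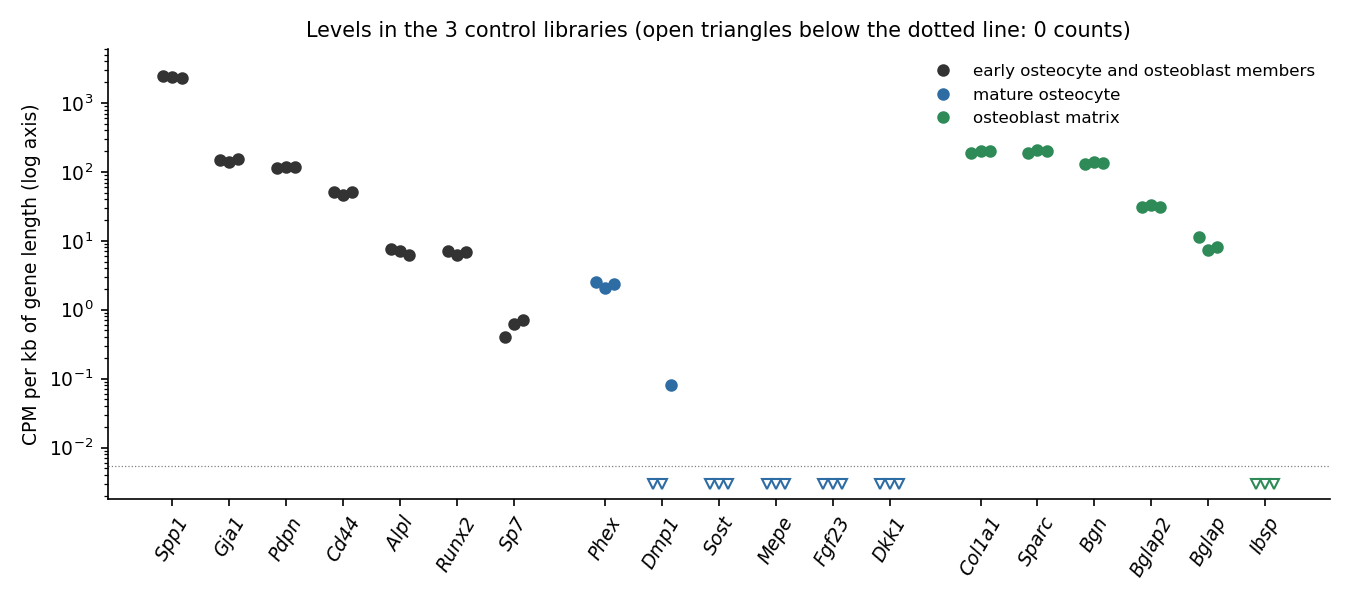
Level of the identity genes and of further osteocyte and osteoblast genes in the 3 control libraries, in CPM per kb of gene length on a log axis, with 1 point per library and open triangles for libraries with 0 counts. Spp1 lies near 2355 CPM per kb and Phex near 2.32, while Sost, Mepe, Fgf23, Dkk1 and Ibsp have no count in any control library.

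Most genes of the mature osteocyte were at or near 0, with Phex, Irx5 and Kcnk2 as the exceptions among 12. Sost, which encodes sclerostin, had a single count over all 9 libraries, in the first 24 h library. Dmp1 encodes a matrix phosphoprotein of the osteocyte that is needed for mineralisation and for restraint of FGF23. Its counts were 0, 0 and 3 in the control libraries, 1, 6 and 1 at 24 h, and 0, 0 and 1 at 48 h, or 12 counts in all. The highest Dmp1 level, 0.391 CPM, was reached in the second 24 h library, and the groups overlapped. A count of 3, taken as the upper limit that a count of 0 allows, corresponded to 0.160 to 0.245 CPM per library, which covers counting error only. No change of Dmp1 or Sost was therefore detectable at this depth, and neither was tested. Among 12 genes of the mature osteocyte, Mepe, Fgf23, Dkk1, Ptprz1, Npy and Ostn had no count in any library, and 8 of the 12, Sost included, had at most 3 counts in every library. Phex, Irx5 and Kcnk2 passed the filter, at 14.6 CPM (Phex), 6.999 CPM (Irx5) and 2.03 CPM (Kcnk2) in control, and a pseudogene on the strand of Kcnk2 overlaps it with more counts than its own. Mepe and Fgf23 encode a matrix phosphoglycoprotein and the phosphate-lowering hormone of the osteocyte.

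The start regions of 4 of these genes are shown because Spp1 and Dmp1 lie in the same cluster of matrix phosphoprotein genes on chromosome 5 and carry the same RUNX letters in 1 start region each. Their levels stood at opposite ends of the range. RUNX2, the master transcription factor of the osteoblast, binds AACCACA, and this word was searched on both strands in the 250 bases before each RefSeq start of transcription. Of the 10 genes, 9 had an entry in the RefSeq promoter table (GRCm38.p6), with 12 start sites together, and each window was placed on GRCm39 by an exact and unique match. The word was in 1 window each of Spp1, Dmp1 and Runx2, at 129, 165 and 81 bases before the start, and in 4.40% of all 32851 windows of the table. Spp1 and Dmp1 each have another start site, and the window there, not shown, was without the word. It was not in the window of Sost either. Each sequence below runs 5′ to 3′ on the strand of its gene, with the RUNX letters in capitals.
Spp1, chr5:104582727-104582976, plus strand: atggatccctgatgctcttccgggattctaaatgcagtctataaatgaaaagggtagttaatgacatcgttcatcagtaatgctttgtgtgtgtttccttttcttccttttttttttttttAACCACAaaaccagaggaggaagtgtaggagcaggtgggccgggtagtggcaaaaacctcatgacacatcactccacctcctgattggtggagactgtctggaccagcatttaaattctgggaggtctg
Dmp1, chr5:104350233-104350482, plus strand: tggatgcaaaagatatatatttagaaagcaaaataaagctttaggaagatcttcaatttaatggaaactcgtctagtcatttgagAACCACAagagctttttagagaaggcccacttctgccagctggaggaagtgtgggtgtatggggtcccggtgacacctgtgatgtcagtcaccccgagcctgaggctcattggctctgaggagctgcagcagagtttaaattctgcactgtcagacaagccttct
Runx2, chr17:45125515-45125764, minus strand: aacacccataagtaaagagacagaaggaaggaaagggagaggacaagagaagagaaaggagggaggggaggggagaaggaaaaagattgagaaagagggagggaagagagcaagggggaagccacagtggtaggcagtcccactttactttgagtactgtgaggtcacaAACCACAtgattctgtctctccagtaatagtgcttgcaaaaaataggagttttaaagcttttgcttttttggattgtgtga
Sost, chr11:101857842-101858091, minus strand: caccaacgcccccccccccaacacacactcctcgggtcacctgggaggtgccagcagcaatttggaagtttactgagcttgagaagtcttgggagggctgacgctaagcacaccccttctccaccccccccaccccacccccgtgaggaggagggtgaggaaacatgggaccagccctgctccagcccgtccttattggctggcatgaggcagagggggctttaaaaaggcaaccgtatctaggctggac
A match of letters is a description of the window, and binding was not measured in these samples.

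Against control, the 48 h libraries differed in most of the tested identity genes and the 24 h libraries in 1. At 48 h, Gja1, Phex and Pdpn were higher and Spp1, Cd44, Alpl and Sp7 were lower, while Runx2 did not pass the test. Thus 3 of 8 were called higher and 4 of 8 lower at an adjusted p under 0.05 (edgeR quasi-likelihood test, Benjamini-Hochberg adjustment over all tested genes). Of all tested genes, 22.0% were called higher and 24.4% lower in the same comparison, so that change at 48 h was common. The libraries of the 48 h and control groups did not overlap for 7 of the 8 genes, against 53.1% of all tested genes. At 24 h only Pdpn was called, and it was higher. The background there was 3.25% higher and 2.90% lower. No overlap between 24 h and control libraries was seen for Pdpn, Gja1, Cd44 and Alpl, 4 of 8, against 21.5% of all tested genes. Between 48 h and 24 h, 2 of 8 were called higher (Gja1 and Phex) and 4 of 8 lower (Spp1, Cd44, Sp7 and Pdpn), against 23.7% and 25.4% of all tested genes. The 48 h and 24 h libraries did not overlap for the same 6 of the 8 genes, against 59.4% of all tested genes. In the joint test of the 3 groups 7 of 8 were called, against 51.9% of all tested genes. The median log2 fold change of the 8 genes was -0.12 at 48 h and 0.10 at 24 h against control, beside medians of -0.0022 and -0.0042 over all tested genes. The comparisons with control share the same 3 control libraries. These shares over all tested genes are also the background of the counts of calls given for each gene list that follows, and identity genes that belong to a list are among its counts.

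**Figure D2:**
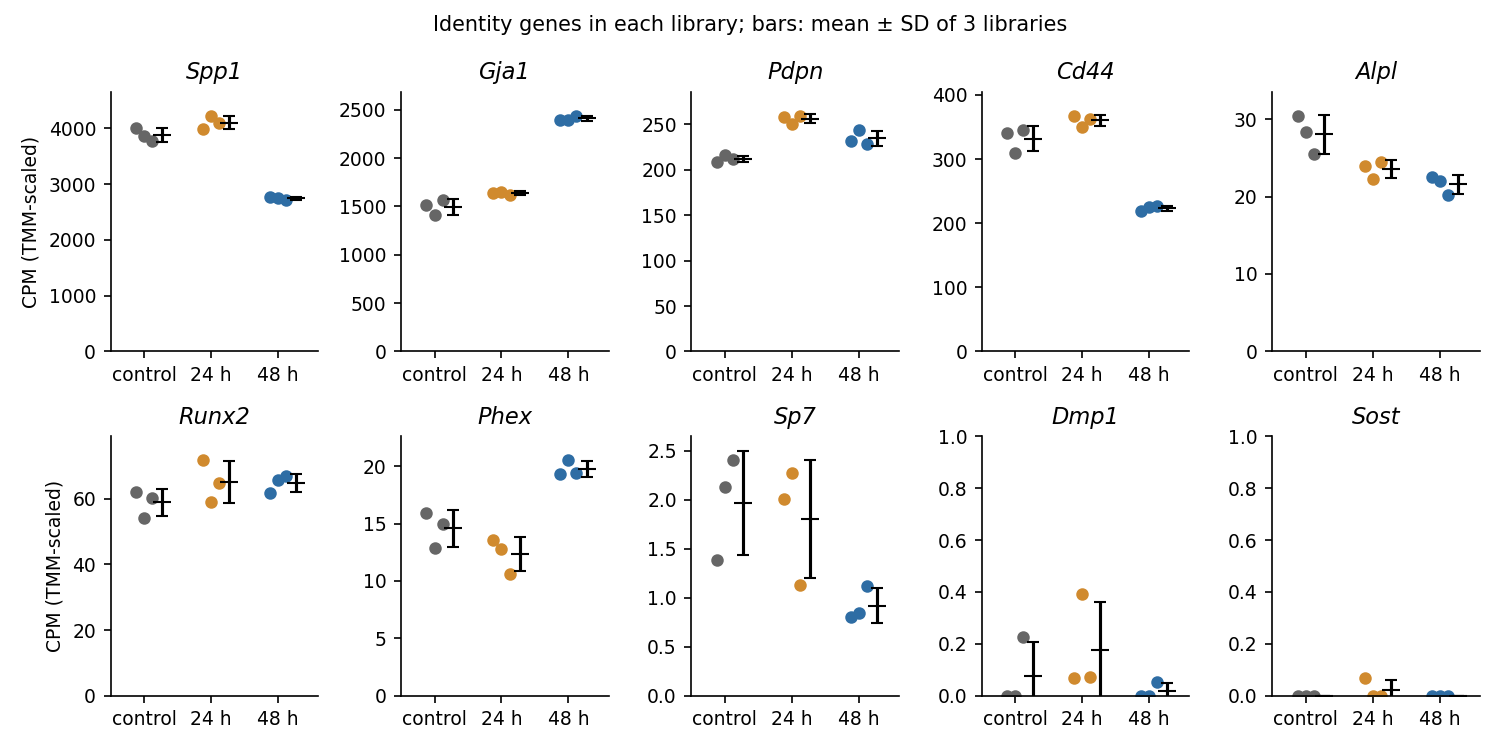
TMM-scaled CPM of each identity gene by group, with 1 point per library and bars for the mean ± SD of 3 libraries, on a separate linear axis from 0 for each gene. Spp1 and Cd44 are lowest and Gja1 and Phex highest in all 3 libraries at 48 h, Pdpn is highest at 24 h, Runx2 overlaps among the groups, and Dmp1 and Sost stay under 0.4 CPM.

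Spp1 encodes osteopontin, a secreted phosphoprotein that binds integrins and CD44 and restrains crystal growth. Its level was 4015, 3861 and 3767 CPM in the control libraries, 3988, 4229 and 4096 CPM at 24 h, and 2773, 2745 and 2712 CPM at 48 h. The 48 h libraries lay together below all others, whereas control and 24 h overlapped. Osteopontin RNA thus fell to 0.707-fold of control at 48 h (log2 -0.50 ± 0.034 SE, adjusted p = 1.32e-09). At 24 h it stood at 1.06-fold and was not called (adjusted p = 0.20, 95% interval of the log2 fold change 0.0091 to 0.15). Between 24 h and 48 h the difference was -0.58 ± 0.034 on the log2 scale (adjusted p = 1.6e-10). Even so, Spp1 held 0.274 to 0.281% of all counts at 48 h, against 0.376 to 0.401% in control, and ranked 10th or 11th among all genes by count after ranking 6th in each library of the other groups. Of the 5 matrix phosphoprotein genes of its cluster, Spp1 alone was tested. Dspp, Ibsp and Mepe had no count in any library, and the fifth is Dmp1.

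Alpl encodes the tissue-nonspecific alkaline phosphatase, which splits pyrophosphate and so permits mineralisation. It was measured at 30.4, 28.3 and 25.4 CPM in control, 24.0, 22.3 and 24.4 CPM at 24 h, and 22.5, 22.0 and 20.2 CPM at 48 h. Every control library was above every library of the co-cultures with stimulated chondrocytes, and the 24 h and 48 h libraries overlapped. Alkaline phosphatase RNA fell to 0.767-fold at 48 h (log2 fold change -0.38 ± 0.084 SE, adjusted p = 0.00112). The difference at 24 h was -0.26 ± 0.085 on the log2 scale and missed the threshold (adjusted p = 0.0888). The step between 24 h and 48 h was -0.13 ± 0.085, with a 95% interval of -0.31 to 0.053 and an adjusted p of 0.237.

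Runx2 sets the osteoblast lineage, and Sp7, which encodes osterix, acts downstream of it. Runx2 was read at 62.2, 54.3 and 60.2 CPM in control, 71.9, 59.1 and 64.7 CPM at 24 h, and 61.9, 65.8 and 67.0 CPM at 48 h. All 3 groups overlapped. Runx2 was the only one of the 8 tested genes that the joint test did not call (adjusted p = 0.18). Its log2 fold change was 0.14 ± 0.073 at 48 h, with a 95% interval from -0.016 to 0.29 and an adjusted p of 0.136. At 24 h it was 0.14 ± 0.074, with an interval from -0.012 to 0.30 and an adjusted p of 0.311. Runx2 overlaps Supt3 on the opposite strand, and the counts of Supt3 reached 28.9% of those of Runx2. Whether counting used the strand is not stated, so the share of Runx2 counts that belongs to Supt3 was not tested.

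Sp7 was the least abundant of the tested identity genes. It had 22, 26 and 32 counts in control, 30, 35 and 16 at 24 h, and 14, 14 and 21 at 48 h, which corresponds to 1.38, 2.13 and 2.41 CPM, to 2.00, 2.28 and 1.13 CPM, and to 0.800, 0.839 and 1.12 CPM. All 48 h libraries were below all others, though the lowest 24 h library, at 1.13 CPM, lay just above the highest 48 h library. Osterix RNA was 0.476-fold of control at 48 h (log2 fold change -1.07 ± 0.34 SE, adjusted p = 0.0139). The interval of this change ran from -1.77 to -0.37, the widest among the tested identity genes. Without the third control library the change was -0.88 with an adjusted p of 0.065, so the call rested on that library. The fall from 24 h to 48 h was -0.97 ± 0.33 (adjusted p = 0.0228). Leaving out the first or second 24 h library or the first or second 48 h library ended that call, with adjusted p from 0.0649 to 0.12. At 24 h against control the difference was -0.10 ± 0.31, with an interval from -0.76 to 0.55 (adjusted p = 0.908).

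The other transcription factors of the osteoblast were measured beside Runx2 and Sp7. Of the 11 in this list, 8 were tested, and at 48 h against control 1 was called higher (Dlx3) and 2 lower (Lef1 and Sp7). None of the 8 was called at 24 h. The list's median log2 fold change was 0.095 at 48 h and -0.00040 at 24 h. Cbfb, the partner of RUNX proteins on DNA, had 163.8 ± 13.3 CPM in control, 166.6 ± 3.49 at 24 h and 162.1 ± 5.47 at 48 h and was not called (adjusted p = 0.841 at 48 h). Dlx3, a homeobox factor, rose by 0.20 on the log2 scale at 48 h (adjusted p = 0.00986). Lef1, a nuclear effector of Wnt signalling, fell by 1.26 (adjusted p = 0.000142), but its level was only 4.38 ± 0.887 CPM in control and 1.84 ± 0.305 CPM at 48 h.

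Gja1 encodes connexin 43, the gap junction protein through which osteocyte dendrites couple. Its level was 1520, 1408 and 1566 CPM in control, 1643, 1653 and 1616 CPM at 24 h, and 2399, 2400 and 2441 CPM at 48 h. The order of the groups held in every library, with no overlap at either step. Connexin 43 RNA rose 1.61-fold at 48 h (log2 fold change 0.69 ± 0.039 SE, adjusted p = 1.14e-10). At 24 h the difference was 0.13 ± 0.039, higher in 3 of 3 libraries but not called (adjusted p = 0.0625). The rise from 24 h to 48 h was 1.47-fold (log2 0.56 ± 0.039, adjusted p = 1.61e-09). Among the identity genes Gja1 had the smallest adjusted p against control at 48 h.

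Other connexins and pannexins were measured at far lower levels. Of the 13 genes in this list 6 were tested, and at 48 h 1 was called higher (Gja1) and 2 lower (Gja4 and Gjc1). The list's median log2 fold change was -0.34 at 48 h and -0.34 at 24 h, where none was called. Gjc1, encoding connexin 45, which can form channels together with connexin 43, fell from 11.8 ± 1.28 to 8.90 ± 0.866 CPM (log2 -0.41 ± 0.12, adjusted p = 0.00839).

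Pdpn encodes podoplanin (E11), the membrane protein that is induced as the osteocyte dendrite forms. It was read at 208.9, 215.9 and 212.0 CPM in control, 258.3, 250.8 and 259.8 CPM at 24 h, and 231.9, 244.4 and 228.2 CPM at 48 h. No library of one group overlapped with another group, and the highest level was at 24 h. Podoplanin RNA rose 1.21-fold at 24 h (log2 fold change 0.27 ± 0.047 SE, adjusted p = 0.000935). At 48 h it was 1.11-fold of control (log2 0.15 ± 0.047, adjusted p = 0.0161), and between 24 h and 48 h it fell by 0.13 (adjusted p = 0.0318). The calls at the second time were weak. Without the second 48 h library the change at 48 h had an adjusted p of 0.0999. The fall from 24 h to 48 h missed the threshold without any 1 of the 24 h libraries, without the first or the third 48 h library (adjusted p from 0.0512 to 0.147), and with scaling by library size alone (log2 -0.087, adjusted p = 0.132).

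Podoplanin binds ezrin and moesin, which link membrane proteins to actin, and the ezrin, radixin and moesin genes were read beside it. Msn, the most abundant of these at 513.9 ± 32.7 CPM in control, reached 586.5 ± 15.3 CPM at 24 h and 410.2 ± 17.3 CPM at 48 h. It was called higher at 24 h (log2 0.19 ± 0.050, adjusted p = 0.0273) and lower at 48 h (log2 -0.33 ± 0.050, adjusted p = 3.24e-05). The 24 h call was lost without the first or the second control library, and without the first or the third 24 h library (adjusted p 0.0664 to 0.125). Rdx fell by 0.44 at 48 h (adjusted p = 1.16e-05), and it stood 0.038 above control on the log2 scale at 24 h (adjusted p = 0.81). Ezr had 92.1 ± 5.58 CPM in control and 83.2 ± 2.30 CPM at 48 h, a difference of -0.15 ± 0.057 (adjusted p = 0.0437) that most alternative settings did not call. At 24 h Ezr was at 87.2 ± 0.733 CPM (adjusted p = 0.521).

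All 11 genes of the young osteocyte and its dendrites were tested. At 48 h 3 were called higher (Gja1, Cav1 and Pdpn) and 6 lower (Fscn1, Cd44, Rdx, Msn, Ezr and Dstn), with a median log2 fold change of -0.13, beside 22.0% higher and 24.4% lower over all tested genes. Ezr and Dstn lay near the threshold in the edgeR test (adjusted p = 0.0437 and 0.046), and DESeq2 called 4 genes of this list lower. At 24 h 2 were called higher (Pdpn and Msn) and 3 lower (Cav1, Mmp14 and Capg), with a median of 0.038, beside 3.25% and 2.90%. Of these calls, Capg lay near the threshold in the edgeR test (adjusted p = 0.0471), and that of Msn depended on single libraries. Cav1 encodes caveolin 1, the coat protein of caveolae, and was -0.27 at 24 h (adjusted p = 0.000448) but 0.16 at 48 h (adjusted p = 0.0056). Mmp14, a membrane-bound protease that osteocyte dendrites need to cut through collagen, was -0.27 at 24 h (adjusted p = 0.000893) and -0.060 at 48 h, where it was not called (adjusted p = 0.302). Fscn1, which bundles actin, fell from 5.42 ± 0.784 to 3.45 ± 0.603 CPM at 48 h (adjusted p = 0.00671).

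Cd44 encodes a receptor for hyaluronan that also binds osteopontin and is enriched on osteocytes. It was measured at 340.5, 308.8 and 344.5 CPM in control, 367.7, 349.9 and 362.7 CPM at 24 h, and 219.0, 225.2 and 226.1 CPM at 48 h. The 48 h libraries lay apart below all others, and the 24 h libraries lay slightly above the control libraries without overlap. At 48 h Cd44 fell to 0.674-fold (log2 fold change -0.57 ± 0.050 SE, adjusted p = 3.34e-08). The 24 h difference of 0.12 ± 0.049 was not called (adjusted p = 0.185), whereas from 24 h to 48 h Cd44 fell by 0.69 ± 0.050 (adjusted p = 2.31e-09).

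All 9 genes of hyaluronan synthesis, binding and breakdown were tested. At 48 h Cemip was called higher and Hmmr and Cd44 lower, with a median log2 fold change of -0.11. At 24 h Cemip and Has2 were called higher and none lower, with a median of 0.15. Cemip, whose product binds hyaluronan and drives its breakdown, rose from 4.72 ± 0.669 CPM in control to 11.0 ± 1.48 CPM at 24 h (log2 1.22 ± 0.15, adjusted p = 2.81e-05) and 12.4 ± 1.26 CPM at 48 h (log2 1.39 ± 0.15, adjusted p = 3.15e-07). Has2, a hyaluronan synthase, rose from 6.97 ± 0.589 to 12.4 ± 1.25 CPM at 24 h (log2 0.83 ± 0.14, adjusted p = 0.000512). At 48 h Has2 was at 5.92 ± 0.853 CPM and was not called against control (adjusted p = 0.202), after a fall of 1.07 ± 0.13 from 24 h (adjusted p = 2.7e-06). Has2 overlaps the antisense transcript Has2os, whose counts reached 29.3% of its own. Hmmr, another hyaluronan-binding protein, which also acts on the mitotic spindle, fell by 0.68 at 48 h (adjusted p = 2.73e-08) beside Cd44.

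Phex encodes the endopeptidase of osteoblasts and osteocytes whose loss causes X-linked hypophosphataemia. Of the 12 genes listed for the mature osteocyte only 3 were tested, and of these Phex alone was called in any comparison. It was read at 15.9, 12.8 and 15.0 CPM in control, 13.6, 12.8 and 10.6 CPM at 24 h, and 19.3, 20.6 and 19.4 CPM at 48 h. All 48 h libraries were above all others, and control and 24 h libraries overlapped. Phex rose 1.35-fold at 48 h (log2 fold change 0.43 ± 0.10 SE, adjusted p = 0.0024). It was -0.24 ± 0.11 at 24 h, where it was not called (adjusted p = 0.245), and rose 1.60-fold from 24 h to 48 h (log2 0.68 ± 0.11, adjusted p = 3.4e-05). Its counts ranged from 151 to 363 per library.

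**Figure D3:**
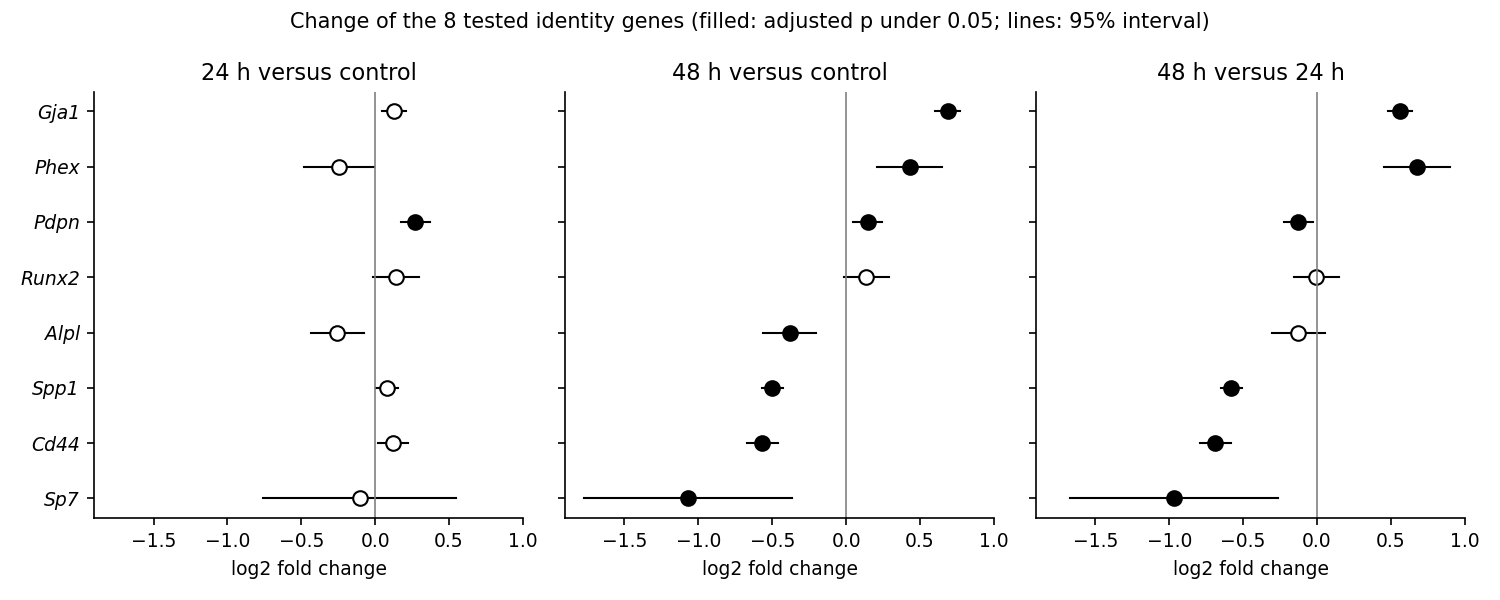
Log2 fold changes of the 8 tested identity genes in the 3 comparisons, with 95% intervals as lines and filled points where the adjusted p is under 0.05. Pdpn alone is filled at 24 h versus control, at log2 0.27, whereas at 48 h versus control only Runx2 is open, at log2 0.14.

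Phosphate and pyrophosphate handling joins Phex, Alpl and Spp1 to further genes. Of 14 genes in this list, 8 were tested. At 48 h 3 were called higher (Enpp1, Slc20a1 and Phex) and 4 lower (Ank, Slc20a2, Spp1 and Alpl), and at 24 h Ank alone was called, lower. The median log2 fold change was -0.20 at 48 h and -0.13 at 24 h. Enpp1, which makes pyrophosphate outside the cell, was read at 260.2, 235.6 and 249.3 CPM in control, 253.4, 240.7 and 225.9 CPM at 24 h, and 401.1, 383.1 and 391.3 CPM at 48 h. It rose at 48 h only among the comparisons with control (log2 0.66 ± 0.052, adjusted p = 9.67e-09), was -0.050 at 24 h (adjusted p = 0.678), and rose by 0.71 from 24 h to 48 h (adjusted p = 3.17e-09). Ank, which carries pyrophosphate and other solutes out of the cell, was read at 217.4, 205.6 and 217.3 CPM in control, 136.0, 138.3 and 123.4 CPM at 24 h, and 133.2, 126.8 and 133.0 CPM at 48 h. It had fallen by 0.69 ± 0.055 at 24 h (adjusted p = 1.7e-07) and by 0.70 ± 0.055 at 48 h (adjusted p = 6.83e-09), and the difference between these times was -0.018 ± 0.055 (adjusted p = 0.814). The phosphate transporters moved apart at 48 h, with Slc20a1 higher by 0.44 ± 0.061 (adjusted p = 9.86e-06) and Slc20a2 at -0.58 ± 0.070 (adjusted p = 2.08e-06). Genes on the opposite strand overlap 3 of these, and their counts reached 28.9% of those of Ank (Otulin), 41.9% of those of Slc20a2 (Smim19) and 8.17% of those of Slc20a1. Another gene opposite Slc20a1 (9830144P21Rik) reached 7.97%, and a noncoding RNA gene on the strand of Slc20a2 (Gm17491) reached 11.5%. Phospho1, the phosphatase of matrix vesicles, was at 3.82 ± 0.967 CPM in control and was not called. Its level is uncertain, because Zfp652 overlaps it on the same strand with up to 1516 counts, against at most 78 of its own.

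**Figure D4:**
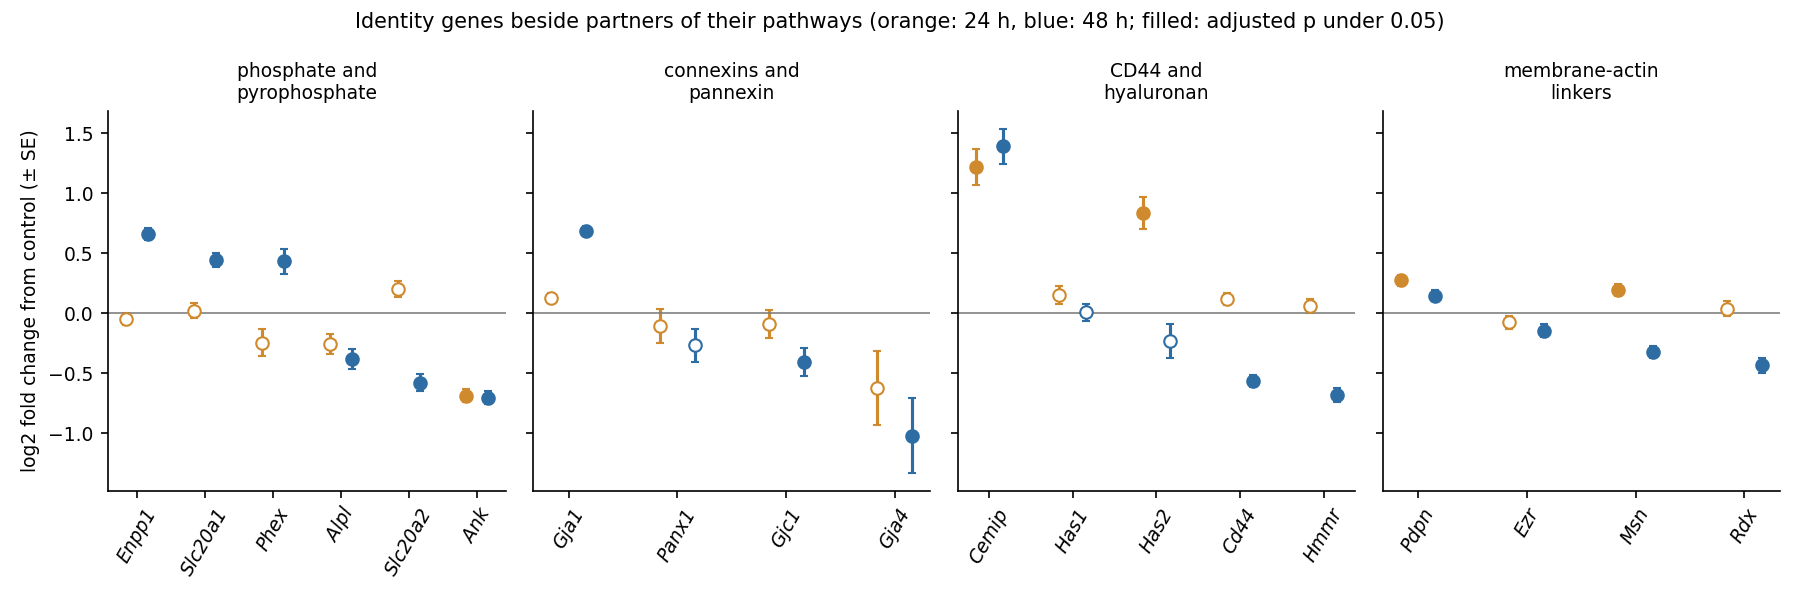
Log2 fold change from control (± SE) of identity genes beside genes of their pathways at 24 h (orange) and 48 h (blue), filled where the adjusted p is under 0.05. Gja1 lies at 0.69 at 48 h while Gjc1 lies at -0.41, Ank is at -0.69 and -0.70 at the 2 times, and Cemip is at 1.22 and 1.39.

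The matrix genes of the osteoblast were mixed. Of 14 genes 9 were tested, and at 48 h 3 were called higher (Omd, Lox and Col1a2) and 3 lower (Pth1r, Bglap and Col1a1), with a median log2 fold change of -0.050. Omd and Pth1r had at most 32 and 16 counts in any library, and Cenpp overlaps Omd on the opposite strand with up to 180 counts. At 24 h Lox was called higher and Col1a2 and Col1a1 lower, with a median of -0.087. Between 48 h and 24 h, 4 were called higher (Omd, Col1a2, Lox and Bgn) and 2 lower (Pth1r and Sparc), with a median of 0.065. DESeq2 called 1 lower there. Sparc stood at 827.4 ± 29.8 CPM at 24 h and 724.6 ± 23.2 CPM at 48 h (log2 -0.19 ± 0.046, adjusted p = 0.00208). Against control, at 750.6 ± 40.0 CPM, it was not called at 24 h or 48 h (adjusted p = 0.0832 and 0.394). Col1a1, the main chain of type I collagen, stood at 1273 ± 47.5 CPM in control, 1108 ± 29.2 CPM at 24 h (log2 -0.20 ± 0.039, adjusted p = 0.00312) and 1159 ± 18.4 CPM at 48 h (log2 -0.14 ± 0.039, adjusted p = 0.0085). Col1a2, its partner chain, was called lower at 24 h (log2 -0.33 ± 0.048, adjusted p = 0.000181) and higher at 48 h (log2 0.12 ± 0.047, adjusted p = 0.0419). Lox, the enzyme that cross-links collagen, rose from 911.0 ± 60.9 CPM to 1425 ± 51.6 CPM at 24 h (log2 0.65 ± 0.048, adjusted p = 7.27e-08) and 1693 ± 72.7 CPM at 48 h (log2 0.89 ± 0.048, adjusted p = 6.43e-11). The osteocalcin genes Bglap and Bglap2 are near-identical copies, so the split of reads between them is uncertain. Bglap was at 5.53 ± 1.32 CPM in control and 3.72 ± 1.17 CPM at 48 h, where its libraries overlapped (log2 -0.59 ± 0.22, adjusted p = 0.0336). The call was lost without the first control library (log2 -0.35, adjusted p = 0.261), without the first or the third 48 h library (adjusted p = 0.167 and 0.0775), and with only the 2 groups compared (adjusted p = 0.0513). Bglap2 was at 15.0 ± 0.624 CPM in control, 14.7 ± 2.12 at 24 h and 13.5 ± 0.534 at 48 h and was not called (adjusted p = 0.942 and 0.255). Ibsp, which encodes bone sialoprotein, and Postn had no count in any library.

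Genes with the most similar course were found by the Pearson correlation of log2 CPM over the 9 libraries, which fall into 3 groups, so many genes share a course. For Spp1 these were Psme3 and Ncl (r = 0.997 each), but 7.94% of 11779 protein-coding genes exceeded r = 0.95. For Cd44 they were Ndc1 and Nup107 (r = 0.998 each, 5.60% above 0.95), and for Gja1 they were Arrdc3 (r = 0.997) and Zfp36l1 (r = 0.996, 3.05% above 0.95). Phex was most like Gnaz and Npr3 (r = 0.986 each) and Pdpn most like Prkar1b (r = 0.981) and Ptx3 (r = 0.98), with 0.484% and 0.102% of genes above 0.95. Alpl was nearest to Vac14 (r = 0.973) and Rbm38 (r = 0.946), and Sp7 to Nae1 (r = 0.96) and Hddc2 (r = 0.948), and 1 gene each exceeded 0.95. Among the identity genes, Spp1 and Cd44 ran together (r = 0.976), and Gja1 ran opposite to Spp1 (r = -0.94).

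Markers of other cells were read because chondrocytes shared the wells. Total counts ran from 12250628 to 18515456 per library and were highest in the 48 h group. Of 14 chondrocyte markers, Acan, Matn1, Col9a1, Col9a2 and Cnmd had no count in any library, and Col2a1 had at most 7 counts. The summed level of the list was 1681 to 1717 CPM in control, 1566 to 1649 at 24 h and 2128 to 2217 at 48 h, nearly all of it from Prg4 and Sox9. Prg4, encoding lubricin, was at 1576 ± 25.1 CPM in control and rose by 0.38 at 48 h (adjusted p = 8.64e-08), as Gja1 and Phex did. Of the 5 tested chondrocyte markers, 3 were called higher at 48 h (Comp, Prg4 and Sox9) and 1 lower (Matn3, log2 -1.25, adjusted p = 0.00155), and none was called at 24 h. Comp had 1 to 21 counts per library, Sox9 lay near the threshold in the edgeR test (adjusted p = 0.0449), and DESeq2 called 2 higher. Prg4 overlaps Tpr on the opposite strand, whose counts reached 25.1% of its own. The other 12 markers together made up 5.40 to 7.37, 3.81 to 4.94 and 4.20 to 5.77 CPM. Summed haematopoietic markers (8 genes) lay between 3.74 and 7.85 CPM in all libraries with Adgre1, Itgam and Tyrobp at 0. Of these, Csf1r was called lower at 24 h (log2 -0.84, adjusted p = 0.0377) and higher at 48 h than at 24 h (log2 0.81, adjusted p = 0.0062). DESeq2 called none of these markers lower at 24 h. Csf1r had 23 to 61 counts per library, and a gene on the opposite strand overlaps it with more counts than its own. Endothelial markers (6 genes) did not exceed 0.521 CPM with Cdh5, Tie1 and Emcn at 0. Adipocyte markers (5 genes, Lep and Cidec at 0) rose from 0.451 to 0.816 CPM in control to 7.85 to 9.03 CPM at 48 h, through Fabp4, and were 0.564 to 1.11 CPM at 24 h. Muscle markers (5 genes, Myog, Myf5 and Pax7 at 0) went from 1.20 to 1.47 CPM in control and 1.89 to 2.19 CPM at 24 h to 0.0534 to 0.286 CPM at 48 h. The part of Prg4, Fabp4 or Myod1 expressing cells in the changes of the identity genes at 48 h was not tested.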

How the data were processed

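RNA of MLO-Y4 cells was sequenced in 9 directional, paired-end libraries. The values are raw counts per gene in a single table, which the authors made by trimming, alignment with HISAT2 to GRCm39 and counting with featureCounts. The sources disagree on the featureCounts version and also name RSEM, and they do not state strand use or the handling of reads with several matches, which makes counts of overlapping genes and near-identical copies uncertain. The deposited counts are not normalized, and coordinates and gene lengths are those of the table.

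Groups came from the sample labels. Of 56748 genes, 26232 had reads, and 13812 passed filterByExpr (minimum count 10), with 99.88% of the reads. Counts were fitted with edgeR 4.0.16 (limma 3.58.1, R 4.3.3) in 1 quasi-likelihood model of all 9 libraries, with TMM scaling, group as its single term and 6 residual degrees of freedom. P-values were adjusted by Benjamini-Hochberg over all tested genes, and a gene was called at an adjusted p under 0.05. Intervals are 95% intervals from the standard error (SE). Total counts were 12250628 to 18515456 per library, and replicate libraries differed by 2.26 to 8.14 times the sampling noise (chi-square per degree of freedom). Same-numbered replicates did not deviate together (r = -0.0493 to 0.0775), so they were not paired. Alternatives were DESeq2 1.42.0, other scalings, no filter, 2 groups at a time, a replicate block, a stricter threshold and each replicate left out. The procedure was tested on simulated data.

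The 14 gene lists (116 genes, 60 tested), of which the identity genes are 1, were chosen with earlier results of these data known. All identity genes were described, together with fixed pathway partners and, for each list and comparison, up to 2 called genes per direction with the largest change, if the group mean reached 5 CPM on at least 1 side of the comparison. Genes of a list below that level are named only to complete a count of calls or of genes at 0, in places with their counts or an overlapping gene. Cbfb, Lef1, Phospho1 and the marker genes of other cells were added after their values were seen. Some genes of the lists as first drawn up are not reported here, and list counts and medians leave them out. Promoter sequences and start sites are from RefSeq.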

Additional observations from a re-analysis of the deposited data

Results flagged for a closer look

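For 6 of the 8 tested identity genes the change from control differed between the times. It was tested as 48 h versus 24 h in the edgeR fit, where the shared control cancels. Of the 8 genes, 2 were called higher and 4 lower, beside 23.7% and 25.4% of all tested genes. For Phex the difference was 0.68 on the log2 scale (adjusted p = 3.4e-05), from -0.24 at 24 h, which was not called, to 0.43 at 48 h. For Gja1 it was 0.56 (adjusted p = 1.61e-09). The difference was -0.69 for Cd44 (adjusted p = 2.31e-09) and -0.58 for Spp1 (adjusted p = 1.6e-10), which were lower than control at 48 h and not called at 24 h. For Sp7 it was -0.97 (adjusted p = 0.0228) and for Pdpn -0.13 (adjusted p = 0.0318), and these calls depended on single libraries. The 48 h and 24 h libraries did not overlap for these 6 of the 8 tested genes, beside 59.4% of all tested genes. The 6 were picked by their call on the same libraries, so this is not separate support. Time in co-culture, time after stimulation and library depth, which was highest at 48 h, cannot be told apart here.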

How the results depend on the processing

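Over the 8 tested identity genes, 3 comparisons and all alternative settings, 384 values were computed. Of these, 355 kept direction and side of the threshold, 16 lost the call, 3 gained one and 10 changed sign, and these 10 were of Runx2 and Sp7 in comparisons that were not called.

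Members called higher at 24 h were 2 without the filter on low counts, where Gja1 reached an adjusted p of 0.0153. Leaving out single replicates gave 1 to 2 called higher and 0 to 1 called lower at 24 h. The higher counts came without the third control library, where Gja1 (adjusted p = 0.00487) and Alpl (adjusted p = 0.0225) were called. At 48 h versus control the same left 2 to 3 higher and 3 to 4 lower, and between 48 h and 24 h it left 2 higher and 2 to 4 lower. The joint test called 6 to 7. With a threshold of 0.01, 2 were lower at 48 h versus 24 h (Cd44 and Spp1), and at 48 h versus control the calls of Pdpn (adjusted p = 0.0161) and Sp7 (adjusted p = 0.0139) were lost, which left 2 higher and 3 lower. With the replicate block, 3 were higher and 4 lower at 48 h, Pdpn at 24 h stood at 0.27 (log2, adjusted p = 0.00113), and no call of an identity gene changed. The numbers in the labels do not pair the samples. The shares over all tested genes given above are those of the main fit at 0.05, not of these settings.

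The sign of Runx2 between 48 h and 24 h turned positive with DESeq2 (0.00024), RLE size factors (0.00030) and scaling by library size (0.033), and leaving out single replicates gave -0.066 to 0.070. Sp7 at 24 h ranged from -0.32 to 0.14 in the same way, with 0.078 without the third control library. Among pathway partners, Ank between the times turned to 0.021 by library size and ranged from -0.058 to 0.022 without single replicates. In the same way Bglap2 at 24 h ranged from -0.12 to 0.085 and Rdx at 24 h from -0.023 to 0.097. The cause was not tested. Without length correction Cd44 ranked above Pdpn and Runx2 above Alpl.

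Depth limits Dmp1, Sost and Sp7. With 3 libraries per group, 1 control group without a stated time and 1 cell line, the values hold for these cultures.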
